A study of Mus musculus with 40 samples.

Results

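Developing oligodendrocytes kept for 8 h with interferon-gamma (IFN-gamma) at 200 U/ml were compared with developing oligodendrocytes left untreated for 8 h. The comparison takes 8 of the 40 libraries of the series, 4 per group, chosen by their labelled treatment and time. Both groups are wild-type C57BL/6 mouse cells with no transgene, and the labels give an age of 6 to 7 days. Progenitors had been purified by immunopanning, in which cells are caught on antibody-coated plates, from the cortices of pups 6 days old. They were taken through 2 passages and left to differentiate for 12 to 14 h, and the plates were then given to a treatment at random. The labels name the tissue whole brain, while the protocol speaks of cortices. Total RNA was sequenced on an Illumina HiSeq instrument. The labels do not say whether the 4 libraries of a group are separate cultures or animals, so p-values reflect how these libraries varied, which may be technical. Cells with IFN-gamma for 1 h and 24 h, each with untreated cells of its own time, and cells with thapsigargin for 8 h (200 uM as labelled) served to set the 8 h response in context. Thapsigargin blocks the calcium pump of the endoplasmic reticulum (ER), and its 8 h group was set against the same 4 untreated libraries as IFN-gamma.

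IFN-gamma is a cytokine of activated T cells and natural killer cells. It binds a receptor of the chains IFNGR1 and IFNGR2, which activates the kinases JAK1 and JAK2 and through them transcription factors of the STAT family. STAT dimers bind gamma-activated sites (GAS) in DNA and switch on primary targets, among them the transcription factor IRF1. IRF1 and complexes of STAT factors with IRF9 bind interferon-stimulated response elements (ISRE) and drive a wider set of genes for antigen presentation and defence inside the cell. In oligodendrocytes IFN-gamma is known for impaired differentiation and for stress of the secretory pathway in cells that are making myelin.

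The 4 IFN-gamma libraries held 15683135 to 18712175 reads on genes, and the 4 untreated libraries 13165483 to 21271203. Reads on ribosomal-RNA-like features made up 0.546 to 2.05% with IFN-gamma and 0.398 to 1.10% without. Untreated replicate 2 had reads on 23109 genes, against 18070 or more in the other untreated libraries and 18831 to 19505 with IFN-gamma. The smallest chi-square of counts between any pair of replicates was 9.79 for each degree of freedom, above what counting error alone gives. The groups also differed in a way that is not in the labels. Kdm5d, Eif2s3y, Uty and Ddx3y, which lie on the Y chromosome, together stood at 7.28, 316.2, 0.662 and 311.4 CPM (a gene's count relative to the library's total, with totals scaled for composition) in IFN-gamma replicates 1 to 4. It was 221.8, 213.2, 199.2 and 315.6 CPM in untreated replicates 1 to 4. Xist, which coats and silences an X chromosome, stood at 590.3, 9.60, 420.5 and 0.321 CPM with IFN-gamma and at 70.7, 104.8, 180.4 and 0 CPM without. IFN-gamma replicates 1 and 3 therefore stood apart, low in Y-linked and high in X-inactive transcript. The count of calls, and list counts that moved most, are given below with and without them.

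The oligodendrocyte lineage was the main signal in both groups. Olig1, Olig2 and Sox10, transcription factors that define the lineage, averaged 1304, 786 and 585 CPM with IFN-gamma and 1206, 816 and 589 CPM without, and none of the 3 was called. Of 20 markers of microglia and macrophages, 4 passed the filter on low counts and 1, P2ry12, was called (3.51 ± 0.601 CPM with IFN-gamma and 1.41 ± 0.233 CPM without, log2 fold change 1.30 ± 0.21, adjusted p = 8.97e-06). Csf1r had 0 reads with IFN-gamma and 2 without, Aif1 0 and 1, Tyrobp 0 and 1, and Ptprc, a leukocyte surface phosphatase, 2 and 7. The summed microglial markers lay at 24.6 to 27.7 CPM with IFN-gamma and 23.1 to 27.3 CPM without. Of 13 markers of T and natural killer cells none passed the filter, and Nkg7, Gzmb, Prf1 and Trac had no read in the 8 libraries. In bulk samples fewer cells of a type and less RNA per cell cannot be told apart.

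Of 15135 genes tested, 3811 (25.2%) were called at an adjusted p under 0.05 by edgeR's quasi-likelihood test. Of these, 1977 were higher with IFN-gamma (13.1% of the genes tested) and 1834 were lower (12.1%). Counts of list members given below are to be read against these shares. Without IFN-gamma replicates 1 and 3 the calls numbered 2539, of which 62.5% were higher, against 51.9% with all libraries. With all libraries kept and the Y-linked level as a covariate they numbered 3640, of which 52.1% were higher. The rises were the larger changes. A difference of at least 2-fold was reached by 1055 genes (6.97%), 747 of them higher (4.94%) and 308 lower (2.04%), and one of at least 4-fold by 411 higher genes (2.72%) and 56 lower genes (0.37%). At least 16-fold was reached by 200 higher genes, and at least 8-fold lower by 8 genes. Genes that rose at least 4-fold took 4.36% of all reads with IFN-gamma and 0.185% without. The median log2 fold change over all genes tested was -0.031. Libraries of the groups did not overlap for 4474 genes (29.6%), of which 3390 were also called.

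The start regions of responding genes were searched for GAS and ISRE letters, because these are the elements through which the cytokine is known to act. The window ran from 250 bases before to 50 bases after each gene's start in RefSeq (GRCm38.p6). GAS was searched as TTCNNNGAA and ISRE as GAAA, any 2 bases and GAAA again, each on both strands, and the pattern of one is not contained in the other. Of 411 genes that rose at least 4-fold, 276 had a window in the table. An ISRE match stood in 24.6% of these, against 3.54% of genes that fell at least 2-fold and 3.59% of 10958 tested genes with a window. A GAS match stood in 15.2% of the genes that rose at least 4-fold, 7.52% of those that fell at least 2-fold and 8.12% of all tested. One or the other was found in 34.4% of the strong rises and 11.2% of all tested. These shares are a description of letters, not of bound sites.

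The start regions of 8 genes are shown, each as the 250 bases before the gene's start, 5′ to 3′ on the gene's own strand, with GAS and ISRE letters in capitals. Irf1 and Psmb8 are examples with a GAS match only, Irf1 at position -90 and Psmb8 at position -97 from the start. Gbp2, whose match reads on the reverse strand (position -59), and Isg15, with 3 overlapping matches at positions -78, -72 and -66, hold ISRE letters only. In the other 4 an ISRE follows a GAS after 2 bases. They are Tgtp2, Igtp and Irgm2, GTPase genes of the immunity-related family, and Gm12185.
Irf1 (chr11:53769764-53770013, + strand): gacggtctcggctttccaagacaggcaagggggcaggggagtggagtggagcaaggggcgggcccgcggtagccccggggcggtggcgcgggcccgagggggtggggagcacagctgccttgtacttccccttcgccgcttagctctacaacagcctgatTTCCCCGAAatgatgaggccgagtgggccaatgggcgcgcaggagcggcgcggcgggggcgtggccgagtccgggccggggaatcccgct
Psmb8 (chr17:34197945-34198194, + strand): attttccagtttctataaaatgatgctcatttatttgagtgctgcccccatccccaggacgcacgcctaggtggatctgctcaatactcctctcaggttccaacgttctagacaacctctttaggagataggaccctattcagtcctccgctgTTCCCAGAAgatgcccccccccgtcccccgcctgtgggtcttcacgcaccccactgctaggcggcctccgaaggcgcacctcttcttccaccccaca
Gbp2 (chr3:142620413-142620662, + strand): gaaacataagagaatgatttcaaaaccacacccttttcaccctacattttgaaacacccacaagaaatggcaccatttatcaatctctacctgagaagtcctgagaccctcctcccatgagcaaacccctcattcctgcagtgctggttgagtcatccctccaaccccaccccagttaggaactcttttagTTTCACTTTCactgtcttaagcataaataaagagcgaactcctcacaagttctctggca
Isg15 (chr4:156200819-156201068, - strand): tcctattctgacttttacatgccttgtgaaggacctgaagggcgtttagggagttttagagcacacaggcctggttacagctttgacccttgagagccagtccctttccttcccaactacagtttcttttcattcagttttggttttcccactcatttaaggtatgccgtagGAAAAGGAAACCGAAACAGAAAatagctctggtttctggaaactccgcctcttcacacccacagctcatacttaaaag
Tgtp2 (chr11:49064213-49064462, - strand): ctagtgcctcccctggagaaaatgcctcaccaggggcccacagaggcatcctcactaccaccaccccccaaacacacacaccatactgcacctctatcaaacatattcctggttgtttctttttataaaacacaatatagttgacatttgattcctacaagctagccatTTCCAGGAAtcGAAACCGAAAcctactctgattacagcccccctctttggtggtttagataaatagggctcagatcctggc
Igtp (chr11:58199306-58199555, + strand): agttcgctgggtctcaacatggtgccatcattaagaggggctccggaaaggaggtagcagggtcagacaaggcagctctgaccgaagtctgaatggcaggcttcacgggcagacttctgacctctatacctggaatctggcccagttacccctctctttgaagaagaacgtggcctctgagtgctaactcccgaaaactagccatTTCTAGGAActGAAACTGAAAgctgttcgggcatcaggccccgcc
Irgm2 (chr11:58214727-58214976, + strand): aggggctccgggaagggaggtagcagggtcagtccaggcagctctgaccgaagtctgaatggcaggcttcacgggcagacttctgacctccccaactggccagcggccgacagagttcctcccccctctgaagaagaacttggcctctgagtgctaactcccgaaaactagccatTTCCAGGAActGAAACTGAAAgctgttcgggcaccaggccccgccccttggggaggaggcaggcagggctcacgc
Gm12185 (chr11:48927183-48927432, - strand): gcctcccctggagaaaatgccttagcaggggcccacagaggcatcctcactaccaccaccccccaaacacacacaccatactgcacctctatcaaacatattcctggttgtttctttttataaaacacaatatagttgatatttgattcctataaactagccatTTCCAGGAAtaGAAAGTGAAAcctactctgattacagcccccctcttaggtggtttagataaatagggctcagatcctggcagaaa

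The pair of a GAS followed after 2 bases by an ISRE was found in 5 of 32851 windows (0.015%). All 5 belong to genes that rose at least 4-fold, namely Tgtp1 and the 4 shown with it. The spacing was chosen after the matches had been seen. Tgtp1 and Tgtp2 are near-identical neighbours, and the start region shown for Gm12185 matches that of Tgtp2 over most of its length. Those of Igtp and Irgm2 share long stretches around the pair. The 5 windows are therefore not independent. In Tgtp2 the GAS begins at position -81 and the ISRE at position -70. In Igtp they begin at -45 and -34, in Irgm2 at -75 and -64, and in Gm12185 at -86 and -75.

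Of the signalling chain itself, the tested kinases and STAT genes were called higher while the receptor chains were not. Of 9 tested genes of the receptor, JAK and STAT list, 7 rose and 2 fell, with a median log2 fold change of 0.72. Stat2, which joins IRF9 in the complex that binds ISRE, stood at 229, 229, 213 and 230.0 CPM with IFN-gamma against 23.8, 25.3, 24.3 and 25 CPM in untreated libraries. The groups were far apart, with little spread inside either (log2 fold change 3.19 ± 0.14, adjusted p = 1.01e-19). Jak1 averaged 159 ± 7.07 CPM with IFN-gamma and 77.1 ± 3.47 CPM without (SD, n = 4 each, as throughout), a log2 fold change of 1.04 ± 0.06, and Jak2 rose by 0.75 ± 0.06 on the log2 scale. Stat3, which carries signals of the interleukin-6 family, rose by 0.67 ± 0.04. Stat5a was also called higher, but lost its call without IFN-gamma replicates 1 and 3 and under several other settings. The receptor chain genes were slightly lower. Ifngr1 stood at 26.4, 26.2, 23.5 and 24.6 CPM with IFN-gamma against 31.4, 31, 27.8 and 28.6 CPM in untreated libraries (log2 fold change -0.24 ± 0.07, adjusted p = 0.0119), and its call was lost under 9 of 18 other settings. Ifngr2 averaged 23.7 ± 1.14 CPM with IFN-gamma and 27.8 ± 3.69 CPM without (log2 fold change -0.24 ± 0.09, adjusted p = 0.0417) and lost the call under 13 of the 18.

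Of 6 tested genes of interferon regulatory factors 5 rose. The list that adds Batf2, Batf3, Nmi, Ifi35 and the transactivator genes Nlrc5 and Ciita had 11 of 12 rises and a median log2 fold change of 5.92. Irf1 stood at 999.8, 990.4, 1021 and 1062 CPM with IFN-gamma against 24.1, 23.8, 26.4 and 23.8 CPM in untreated libraries. The groups were far apart (log2 fold change 5.38 ± 0.13, adjusted p = 5.48e-27). Irf8, better known from myeloid cells, stood at 301, 287, 306 and 305 CPM with IFN-gamma against 3, 3.82, 3.31 and 3.28 CPM in untreated libraries (log2 fold change 6.47 ± 0.23, adjusted p = 5.18e-23). Irf9, the DNA-binding partner of STAT2, averaged 127 ± 6.11 CPM with IFN-gamma and 13.5 ± 0.901 CPM without (log2 fold change 3.23 ± 0.12, adjusted p = 5.05e-22). Irf7, an amplifier of type I interferon, averaged 11.9 ± 1.62 CPM with IFN-gamma and 0.0696 ± 0.0545 CPM without, and Irf2, which competes with IRF1, 16.1 ± 3.57 CPM with IFN-gamma and 6.94 ± 1.19 CPM without (log2 fold change 1.22 ± 0.15, adjusted p = 3.77e-08). Irf3, the sensor-activated factor, was at 32.8 against 33 CPM and not called. Batf2, whose product pairs with IRF1, had 2073 reads over the 4 IFN-gamma libraries and 2 over the untreated ones. The transactivators of the MHC promoters were both high: Nlrc5, which drives class I genes, stood at 550.2, 589, 535 and 614 CPM with IFN-gamma against 1.85, 2.04, 0.884 and 2.57 CPM in untreated libraries (log2 fold change 8.26 ± 0.32, adjusted p = 6.82e-22). Ciita, which drives class II genes, stood at 40.4, 41.1, 40 and 45 CPM with IFN-gamma against 0.0501, 0.133, 0 and 0 CPM in untreated libraries. It had 4 reads over the untreated libraries, so that its fold is uncertain.

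Feedback inhibitors of the pathway rose selectively, 6 of 15 tested members. Socs1, which blocks JAK kinases and is a classical brake on IFN-gamma, stood at 119, 93.8, 112 and 69.9 CPM with IFN-gamma against 0.501, 0.755, 0.516 and 0.428 CPM in untreated libraries (log2 fold change 7.42 ± 0.36, adjusted p = 5.88e-19). Socs2, a brake on growth hormone signalling, averaged 52.3 ± 9.99 CPM with IFN-gamma and 6.6 ± 1.04 CPM without (log2 fold change 2.97 ± 0.21, adjusted p = 2.61e-14). Socs3 rose by 1.06 ± 0.16 on the log2 scale and Cish by 1.13 ± 0.14. Usp18, which removes ISG15 and damps the type I receptor, averaged 19.7 ± 0.831 CPM with IFN-gamma and 0.0718 ± 0.0626 CPM without (log2 fold change 7.98 ± 0.36, adjusted p = 1.27e-19). Socs4, Socs5, Socs6 and Socs7 differed by 0.15, -0.08, 0.11 and 0.01 on the log2 scale and were not called. The PIAS genes Pias1 and Pias3 (0.14 and -0.22) and the phosphatases Ptpn2 and Ptpn11 (0.12 and -0.09) were not called either.

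**Figure D1:**
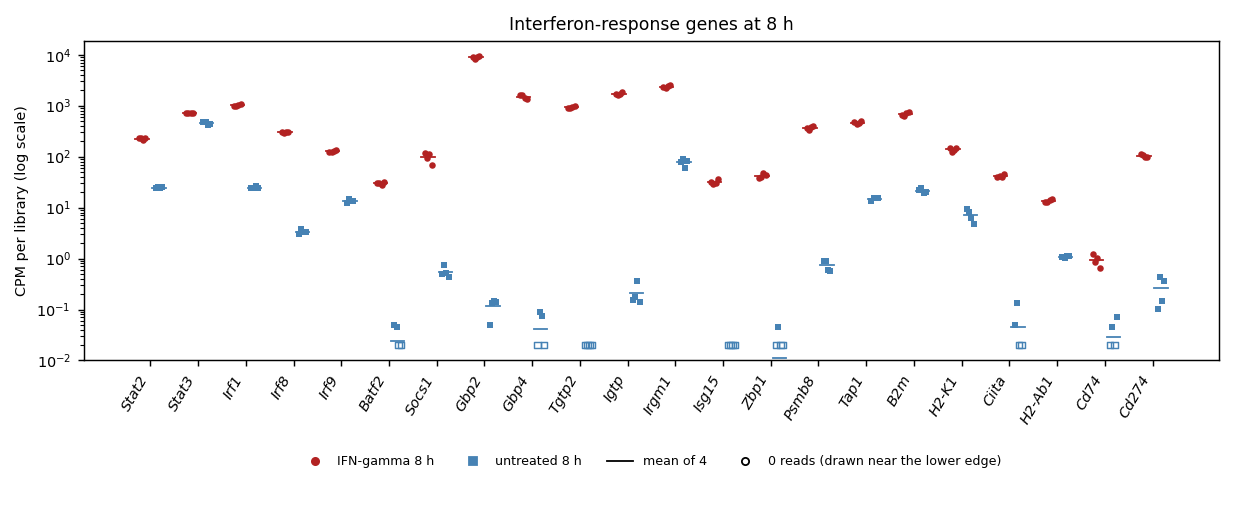
CPM of 22 genes of the interferon response in each library (log axis), with the 4 IFN-gamma libraries as red circles on the left of each gene and the 4 untreated libraries as blue squares on the right. Open symbols near the lower edge are libraries with 0 reads. Libraries of the same group lie close together for most genes and the groups do not overlap for any gene shown.

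The GTPases of cell-autonomous immunity made up 11 of the 12 largest rises. Guanylate-binding proteins (GBPs) coat and break pathogen vacuoles, and all 10 tested members rose. A gene with almost no untreated reads passes the filter on low counts only through groups where it is high. List members of low level without such a rise are left out as untested. Shares of tested members and list medians are therefore partly set in advance, here and in the other response lists. Gbp2 stood at 8846, 8375, 9140 and 9497 CPM with IFN-gamma against 0.0501, 0.133, 0.147 and 0.143 CPM in untreated libraries. It had 614806 reads over the 4 IFN-gamma libraries and 8 over the 4 untreated ones, and its log2 fold change of 16.18 ± 0.61 rests on those 8 reads. Gbp3 and Gbp7 had a measurable untreated level: Gbp3 averaged 1223 ± 74.3 CPM with IFN-gamma and 5.58 ± 0.359 CPM without (log2 fold change 7.78 ± 0.24, adjusted p = 1.21e-24) and Gbp7 568 ± 26.4 CPM with IFN-gamma and 14 ± 2.19 CPM without (log2 fold change 5.34 ± 0.19, adjusted p = 9.44e-23). Gbp6 stood at 675, 717, 697 and 689.5 CPM with IFN-gamma against 0.1, 0.0888, 0.0737 and 0.428 CPM in untreated libraries. Gbp4 had 3 reads over the untreated libraries and averaged 1488 CPM with IFN-gamma, and Gbp5 had 2 and averaged 66.7 CPM. Gbp8, Gbp9, Gbp10 and Gbp11 averaged 27.2, 196, 297 and 83.8 CPM with IFN-gamma and at most 0.181 CPM without. Several GBP genes are close copies of each other, so reads may have been shared out between them.

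Immunity-related GTPases (IRGs), which in mice act with the GBPs on vacuoles, rose in 11 of 11 tested members. That share has the limit of the filter given for the GBPs. Irgm1, a regulator of the family, was the one with a clear untreated level, at 2298, 2257, 2381 and 2514 CPM with IFN-gamma against 80.1, 88, 59.7 and 81.8 CPM in untreated libraries (log2 fold change 4.93 ± 0.20, adjusted p = 2.27e-21). Igtp, also called Irgm3, stood at 1698, 1636, 1708 and 1819 CPM with IFN-gamma against 0.15, 0.178, 0.368 and 0.143 CPM in untreated libraries, and Irgm2 at 369, 368, 362 and 392 CPM with IFN-gamma against 0.15, 0.311, 0.147 and 0.785 CPM in untreated libraries. Iigp1, an effector of the family, averaged 2458 CPM with IFN-gamma and 0.0554 CPM without, where it had 4 reads in all. Tgtp2 had no read in the untreated libraries and stood at 884, 918, 928 and 977 CPM with IFN-gamma, at least 21620-fold higher against a floor of 3 reads over the group. By the same floor Ifi47 was at least 15950-fold higher and F830016B08Rik at least 2871-fold. Tgtp1 had 31667 reads with IFN-gamma and 1 without, Gm4951 averaged 488 CPM with 2 untreated reads, and Gm4841 117 CPM with 1. Spread between libraries was small, with Tgtp2 at 927.1 ± 38.5 CPM with IFN-gamma. The median log2 fold change over the list was 13.76, or 13.02 with the 3 members that had no untreated read set at their lower bound. Bounds and floors cover counting error only.

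Antiviral genes usually linked to type I interferon rose in 24 of 26 tested members. Isg15, a ubiquitin-like modifier, stood at 31.6, 29.1, 29.7 and 36.5 CPM with IFN-gamma and had no untreated read, at least 737-fold higher. Oas1a, a sensor of double-stranded RNA, was at least 136-fold higher by the same floor. Ifit1, Ifit2 and Ifit3 bind foreign RNA and block its translation. Ifit2 had the highest untreated level of these and stood at 138, 136, 134 and 122 CPM with IFN-gamma against 25, 23.5, 26.5 and 23.6 CPM in untreated libraries (log2 fold change 2.43 ± 0.24, adjusted p = 1.89e-10). Ifit3 averaged 93.8 ± 5.2 CPM with IFN-gamma and 0.246 ± 0.135 CPM without and Ifit1 106 CPM with IFN-gamma and 0.0535 CPM without. Eif2ak2, the RNA-dependent kinase PKR, averaged 142 ± 7.26 CPM with IFN-gamma and 11.3 ± 0.568 CPM without (log2 fold change 3.65 ± 0.11, adjusted p = 1.91e-25). Rsad2 (viperin) rose by 3.67 ± 0.21 on the log2 scale, Cmpk2 beside it by 3.48 ± 0.11, Bst2 (tetherin) by 8.88 ± 0.28 and Samhd1, which depletes nucleotides, by 2.07 ± 0.11. Adar, an RNA-editing enzyme, rose by 0.94 ± 0.06. Isg20 and Ifitm2 were the members not called, at 0.955 against 1.04 CPM and 0.6 against 0.295 CPM. The median over the list was 4.84, or 3.94 with 3 members at their bound.

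Enzymes that attach ISG15 and related modifiers rose in 18 of 19 tested members, with a median log2 fold change of 5.53. Uba7, the activating enzyme for ISG15, averaged 55 ± 5.47 CPM with IFN-gamma and 0.327 ± 0.0971 CPM without (log2 fold change 7.42 ± 0.27, adjusted p = 1.49e-22), and Ube2l6, its conjugating enzyme, 83 ± 5.25 CPM with IFN-gamma and 3.3 ± 0.649 CPM without (log2 fold change 4.65 ± 0.17, adjusted p = 2.7e-22). Herc6, the mouse ligase for ISG15, rose by 4.27 ± 0.13. Rnf213, a giant ubiquitin ligase, stood at 985, 1126, 809 and 842 CPM with IFN-gamma against 11.7, 13.5, 11.6 and 14.3 CPM in untreated libraries (log2 fold change 6.20 ± 0.15, adjusted p = 1.74e-27). Dtx3l and Parp9, partner proteins encoded by neighbouring genes, averaged 307 and 303 CPM with IFN-gamma and 1.15 and 1.22 CPM without. Among the other poly(ADP-ribose) polymerase genes, Parp14 averaged 547 ± 27.9 CPM with IFN-gamma and 0.224 ± 0.238 CPM without, Parp12 249 ± 10.6 CPM with IFN-gamma and 4.65 ± 0.559 CPM without and Parp10 95.1 ± 5.99 CPM with IFN-gamma and 0.204 ± 0.115 CPM without. Parp8 was at 91 against 86.8 CPM and not called. Of nuclear body genes Pml rose by 0.90 ± 0.10.

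Sensors of foreign nucleic acid rose in 7 of 12 tested members. Ddx58 (RIG-I) averaged 85.6 ± 5.35 CPM with IFN-gamma and 5.19 ± 0.71 CPM without (log2 fold change 4.03 ± 0.15, adjusted p = 2.16e-22) and Ifih1 (MDA5) 33.7 ± 3.72 CPM with IFN-gamma and 0.603 ± 0.318 CPM without (log2 fold change 5.69 ± 0.21, adjusted p = 4.41e-22). Tlr3, an endosomal receptor for double-stranded RNA, stood at 29.3, 23.4, 22.5 and 22.5 CPM with IFN-gamma against 0.601, 0.266, 0.368 and 0.428 CPM in untreated libraries (log2 fold change 5.86 ± 0.26, adjusted p = 4.7e-20). Tmem173 (STING) rose by 2.65 ± 0.42 on the log2 scale and Myd88 by 1.24 ± 0.18. Mavs, the adaptor of RIG-I and MDA5, was at 22.4 against 24.8 CPM, and Cgas, which activates STING, at 2.65 against 1.71 CPM, and neither was called. Of 24 measured members of this list, 12 had too few reads to test, among them most of the Ifi200 family.

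Genes for presenting peptides on MHC class I rose at several steps of the route, from proteasome to peptide transporter to heavy chain. Of the class I chains 12 of 14 tested members rose, with a median log2 fold change of 3.52. B2m, the light chain, stood at 647, 622, 724 and 748 CPM with IFN-gamma against 22.5, 23.9, 18.9 and 20.4 CPM in untreated libraries (log2 fold change 4.99 ± 0.16, adjusted p = 2.47e-24). H2-K1, a classical heavy chain, stood at 148, 125, 138 and 144 CPM with IFN-gamma against 9.47, 8.13, 6.12 and 4.71 CPM in untreated libraries (log2 fold change 4.27 ± 0.22, adjusted p = 7.91e-18), and H2-D1 at 258, 240.2, 298 and 285 CPM with IFN-gamma against 30.9, 28.2, 20.4 and 21.8 CPM in untreated libraries (log2 fold change 3.41 ± 0.14, adjusted p = 9.58e-21). The nonclassical heavy chain gene H2-T23, the mouse Qa-1 antigen, averaged 223 ± 18.5 CPM with IFN-gamma and 0.58 ± 0.149 CPM without, and H2-Q4 95.6 ± 12.6 CPM with IFN-gamma and 1.44 ± 0.367 CPM without. Mr1 and Hfe, class I-like genes with other ligands, were not called (0.209 against 0.138 CPM and 0.826 against 0.478 CPM). Class I genes are close copies, so reads may have been shared out between them.

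All 7 immunoproteasome and activator genes rose. Psmb8, a catalytic subunit of the immunoproteasome, stood at 363, 336, 382 and 400.1 CPM with IFN-gamma against 0.902, 0.888, 0.589 and 0.571 CPM in untreated libraries (log2 fold change 8.91 ± 0.25, adjusted p = 1.12e-25). Psmb9 averaged 159 ± 7.77 CPM with IFN-gamma and 0.791 ± 0.323 CPM without, Psmb10 292 ± 21.2 CPM with IFN-gamma and 11.9 ± 1.18 CPM without, and the activator subunits Psme1 and Psme2 rose by 2.93 ± 0.09 and 3.15 ± 0.09 on the log2 scale. The constitutive subunits that these replace were not called: Psmb5 differed by 0.08 ± 0.09, Psmb6 by -0.17 ± 0.09 and Psmb7 by -0.07 ± 0.06. Of 14 constitutive core subunits 4 rose (28.6%, against 13.1% of all genes), among them Psma2 (log2 fold change 0.32 ± 0.08, adjusted p = 0.00162). In the upper 20 library numbers alone 7 rose, and in the lower 20 alone 1 fell. Tap1, a chain of the peptide transporter, stood at 468, 444, 452 and 499 CPM with IFN-gamma against 13.2, 15.5, 15.1 and 15.3 CPM in untreated libraries (log2 fold change 4.98 ± 0.17, adjusted p = 1.07e-23). Tap2 rose by 5.73 ± 0.17, the loading factor Tapbp by 5.10 ± 0.11, its relative Tapbpl by 5.09 ± 0.15 and the trimming peptidase Erap1 by 4.15 ± 0.07. The general ER chaperones of the loading complex, Calr and Canx, were at 859 against 865 CPM and 922 against 914 CPM and not called.

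MHC class II genes, normally restricted to professional antigen-presenting cells, were detected at low levels. Of 14 tested genes of the list 8 rose and 1 fell, and the chain genes themselves were among the rises. H2-Ab1 stood at 12.9, 12.8, 13.8 and 14.8 CPM with IFN-gamma against 1.05, 1.02, 1.1 and 1.14 CPM in untreated libraries (log2 fold change 3.65 ± 0.17, adjusted p = 2.65e-19) and H2-Eb1 at 9.37, 8.03, 10 and 10.2 CPM with IFN-gamma against 0.0501, 0.355, 0.295 and 0.0714 CPM in untreated libraries (log2 fold change 5.51 ± 0.34, adjusted p = 1.08e-15). H2-Aa had 1 read without IFN-gamma and averaged 3.9 CPM with it. Cd74, the invariant chain, stood at 1.22, 0.842, 1.05 and 0.642 CPM with IFN-gamma against 0, 0.0444, 0 and 0.0714 CPM in untreated libraries, which is 65 reads over the 4 IFN-gamma libraries and 2 over the 4 untreated ones. H2-DMa, which edits class II peptides, averaged 14.9 ± 1.58 CPM with IFN-gamma and 4.61 ± 0.496 CPM without (log2 fold change 1.69 ± 0.12, adjusted p = 1.17e-13), and H2-DMb1 was at least 22.1-fold higher. Ifi30, a lysosomal reductase, was the member that fell (1.26 against 2.46 CPM), with a call lost in the upper 20 library numbers alone. Ctsb, Ctsd and Ctsl, lysosomal proteases of the route, were not called (-0.18, -0.11 and -0.04 on the log2 scale), and Ctss had 1 read in each group. The summed microglial markers, given above, overlapped between the groups.

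Surface molecules that meet T cells rose in 9 of 15 tested members and fell in 1. Cd274, the checkpoint ligand PD-L1, stood at 113, 109.9, 96.8 and 99 CPM with IFN-gamma against 0.1, 0.444, 0.147 and 0.357 CPM in untreated libraries (log2 fold change 8.56 ± 0.34, adjusted p = 2.33e-21). Icam1, an adhesion ligand for leukocytes, averaged 10.8 ± 1.06 CPM with IFN-gamma and 0.208 ± 0.0513 CPM without (log2 fold change 5.61 ± 0.47, adjusted p = 4.49e-12). The death receptor gene Fas stood at 21.5, 21, 19.6 and 19.3 CPM with IFN-gamma against 2.55, 2.35, 2.43 and 1.78 CPM in untreated libraries (log2 fold change 3.14 ± 0.18, adjusted p = 1.48e-16). Tnfrsf1a, the broadly expressed TNF receptor, rose by 0.70 ± 0.10 and Cd47, which inhibits phagocytosis, by 1.01 ± 0.09. Lgals3bp, a secreted galectin ligand, averaged 35.4 ± 2.83 CPM with IFN-gamma and 0.179 ± 0.0713 CPM without and Lgals9 4.3 ± 0.25 CPM with IFN-gamma and 0.029 ± 0.0352 CPM without. The costimulatory genes Cd80, Cd86 and Cd40 had at most 6 reads in either group.

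Among chemokines, cytokines and their receptors, 14 of 23 tested genes rose and 3 fell. Cx3cl1 (fractalkine), a ligand for microglia, stood at 106, 100.4, 104 and 106 CPM with IFN-gamma against 22.5, 22.6, 23.2 and 17.4 CPM in untreated libraries (log2 fold change 2.28 ± 0.21, adjusted p = 7.2e-11). Csf1, a growth factor of microglia, stood at 81, 82.6, 89.1 and 86.3 CPM with IFN-gamma against 16.3, 18.6, 20.4 and 25.8 CPM in untreated libraries (log2 fold change 2.07 ± 0.22, adjusted p = 2.77e-09). Cxcl10, which attracts T cells, had no untreated read and 11.9, 8.81, 6.39 and 4.56 CPM with IFN-gamma, at least 187-fold higher, and Cxcl9 was at least 27.9-fold higher. Il18bp, an inhibitor of interleukin-18, averaged 44 ± 3.06 CPM with IFN-gamma and 6.17 ± 0.914 CPM without (log2 fold change 2.84 ± 0.11, adjusted p = 1.64e-21), Il15ra 6.02 ± 0.643 CPM with IFN-gamma and 0.724 ± 0.12 CPM without and the interleukin-1 receptor Il1r1 5.83 ± 0.424 CPM with IFN-gamma and 0.8 ± 0.497 CPM without. Ifnar2, a chain of the type I interferon receptor, rose by 0.82 ± 0.09, and Ifnar1 was not called (0.06). Cxcr4, a receptor of progenitor migration, fell by 1.48 on the log2 scale (1.74 against 4.82 CPM), and Il10rb by 0.90. Il6, Tnf, Il1b and Ifnb1 had at most 1 read in either group.

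Complement genes rose in 4 of 9 tested members. Serping1, the inhibitor of the C1 complex, stood at 114, 116, 124 and 145 CPM with IFN-gamma against 0.1, 0.178, 0.0737 and 0.0714 CPM in untreated libraries (log2 fold change 10.01 ± 0.31, adjusted p = 1.77e-24). C4b averaged 121 ± 17 CPM with IFN-gamma and 13.1 ± 2.41 CPM without (log2 fold change 3.20 ± 0.20, adjusted p = 8.02e-16), C2 9.15 ± 1.2 CPM with IFN-gamma and 0.396 ± 0.142 CPM without (log2 fold change 4.54 ± 0.27, adjusted p = 3.93e-16), and C1ra, a protease of the C1 complex, 10.6 CPM with IFN-gamma and 2 reads in all without. The C1q chains and C3 were not tested for lack of reads. Of serpins, inhibitors of proteases, 6 of 12 rose and 1 fell. Serpina3f averaged 132 ± 7.2 CPM with IFN-gamma and 0.0849 ± 0.0455 CPM without, and Serpina3i 45.5 ± 2.2 CPM with IFN-gamma and 2.88 ± 0.691 CPM without (log2 fold change 3.96 ± 0.15, adjusted p = 1.04e-21). Serpina3n, a member of the same cluster known from reactive glia, was at 619.5 against 540.4 CPM and not called. Serpinb9, an inhibitor of granzyme B, averaged 7.35 ± 0.856 CPM with IFN-gamma and 0.239 ± 0.0806 CPM without (log2 fold change 4.96 ± 0.26, adjusted p = 5.84e-18). The Serpina3 genes are close copies, and so are C4a and C4b.

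Cell death genes rose in 15 of 23 tested members and fell in 1. Those of inflammatory death came from very low untreated levels. Casp1 stood at 12.2, 10.9, 12.2 and 12.1 CPM with IFN-gamma against 0.0501, 0.0444, 0 and 0.143 CPM in untreated libraries, Casp4 at 31.4, 26.3, 32 and 31.6 CPM with IFN-gamma against 0.701, 1.11, 0.81 and 0.5 CPM in untreated libraries and Casp12 at 24.1, 24.1, 29.5 and 29.9 CPM with IFN-gamma against 0.1, 0.266, 0.0737 and 0.143 CPM in untreated libraries. The groups did not overlap for any of the 3, with log2 fold changes of 7.54 ± 0.36, 5.22 ± 0.25 and 7.36 ± 0.21. Gsdmd, whose product caspases cut into a pore, averaged 6.61 ± 0.911 CPM with IFN-gamma and 0.388 ± 0.119 CPM without (log2 fold change 4.04 ± 0.37, adjusted p = 5.64e-11). Mlkl, the executioner of necroptosis, stood at 45.1, 42.2, 42.4 and 40.5 CPM with IFN-gamma against 0.651, 1.07, 0.81 and 0.571 CPM in untreated libraries (log2 fold change 5.73 ± 0.23, adjusted p = 1.44e-21), while its kinase Ripk3 had 4 reads with IFN-gamma and 2 without. Zbp1, a sensor upstream of necroptosis, averaged 42.5 CPM with IFN-gamma and had 1 untreated read. Casp9, an initiator of apoptosis, was not called (-0.04). Inhibitors rose as well, Cflar by 1.40 ± 0.08 and Birc2 by 0.64 ± 0.06. Of 16 BCL2 family members 5 rose (3 without IFN-gamma replicates 1 and 3), led by Bid (11.6 against 3.79 CPM, log2 fold change 1.59 ± 0.13, adjusted p = 1.04e-12) and Bmf (19.2 against 9.1 CPM, log2 fold change 1.08 ± 0.23, adjusted p = 0.000334). The survival genes Bcl2 and Bcl2l1 and the pore-forming Bax and Bak1 were not called (0.07, -0.06, -0.14 and 0.07).

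Further interferon effectors were read by family. Of 9 tested genes of the apolipoprotein L and Schlafen families 8 rose. Apol9a and Apol9b, near copies of each other, were at least 173-fold and 134-fold higher, Apol6 averaged 102 CPM with 2 untreated reads and Slfn8 22.3 CPM with 1. Slfn9 stood at 96.9, 112, 102 and 96.7 CPM with IFN-gamma against 32.5, 29.8, 41.1 and 29.2 CPM in untreated libraries (log2 fold change 1.62 ± 0.20, adjusted p = 2.77e-08). With thapsigargin Slfn9 averaged 1.92 CPM. Ly6h, a modulator of nicotinic receptors, averaged 46.8 ± 4 CPM with IFN-gamma and 4.67 ± 1.06 CPM without (log2 fold change 3.31 ± 0.20, adjusted p = 3.7e-16), Ly6e rose by 1.30 ± 0.15 and Ly6a averaged 7.76 ± 0.544 CPM with IFN-gamma and 0.0479 ± 0.0695 CPM without. Of genes of tryptophan, arginine, iron and redox defence 4 of 19 tested rose (21.1%) and 2 fell (10.5%), with a median log2 fold change of -0.06. Over all genes 13.1% rose and 12.1% fell. Ido1 had 44 reads with IFN-gamma and 4 without, and Nos2, the inducible nitric oxide synthase, was not called (0.222 against 0.482 CPM). Ch25h, which makes an antiviral oxysterol, was at least 27.9-fold higher at 1.19 CPM. Of NF-kappaB subunits and feedback genes 8 of 21 rose and 3 fell. These counts were 6 and 1 without IFN-gamma replicates 1 and 3, 3 and 2 in the lower 20 library numbers alone and 5 and 0 in the upper 20. The largest with a clear untreated level was Tnfaip3 (A20), a brake on NF-kappaB, at 29.8 ± 3.62 CPM with IFN-gamma and 4.51 ± 1.25 CPM without (log2 fold change 2.73 ± 0.22, adjusted p = 1.07e-12). Nfkb1 and Nfkbia were not called (0.05 and -0.04).

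**Figure D2:**
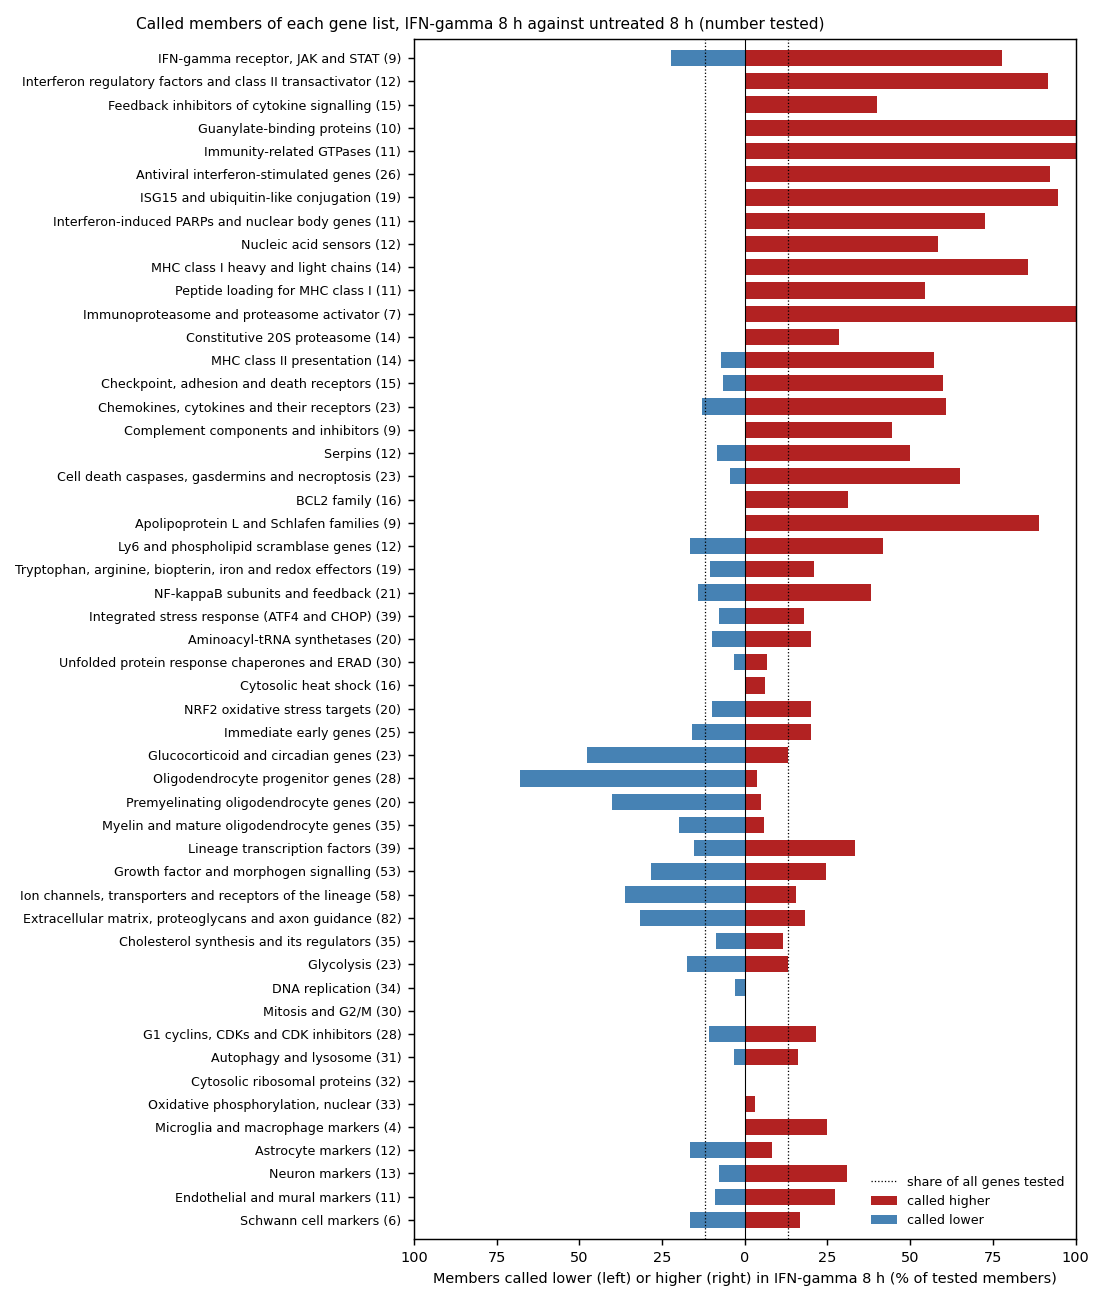
Percent of tested members called higher (right) and lower (left) with IFN-gamma at 8 h in each gene list with at least 4 tested members. The dotted lines mark the shares over all genes tested, 13.1% higher and 12.1% lower. Interferon response lists lie far to the right, progenitor genes far to the left, and replication, mitosis, ribosomal and respiratory lists near 0 on both sides. Members with almost no untreated reads are tested only through groups where they are high, which partly sets the shares of response lists in advance.

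Stress genes were set side by side in IFN-gamma and thapsigargin cells, because both were read against the same untreated libraries. With thapsigargin 60.6% of all tested genes were called (29.6% higher, 31% lower), and its list counts are to be read against that. List counts of IFN-gamma are to be read against 13.1% higher and 12.1% lower. Of 30 chaperone and ER-associated degradation genes, which the unfolded protein response switches on, 2 rose and 1 fell with IFN-gamma, against 30 risen with thapsigargin. Hspa5 (BiP), the main ER chaperone, stood at 672, 665, 667 and 700.1 CPM with IFN-gamma against 689.7, 589, 629.9 and 596 CPM in untreated libraries. The groups overlapped and the gene was not called (log2 fold change 0.11 ± 0.07, adjusted p = 0.246), while with thapsigargin it averaged 9715 CPM. Edem1, which passes misfolded glycoproteins on to degradation, was one of the rises (log2 fold change 0.63 ± 0.11, adjusted p = 2.75e-05) and the other was Pdia3 (log2 fold change 0.24 ± 0.08, adjusted p = 0.0163), whose call was lost under 6 of 18 other settings. Of 39 genes of the integrated stress response, driven by ATF4 and CHOP, 7 rose (17.9%) and 3 fell (7.69%) with IFN-gamma. With thapsigargin 36 of them rose and 1 fell. Atf3, a stress-induced factor of this branch, stood at 13.6, 9.32, 9.7 and 7.19 CPM with IFN-gamma against 0.401, 0.622, 0.589 and 0.357 CPM in untreated libraries (log2 fold change 4.31 ± 0.38, adjusted p = 1.79e-11), and at 56.5 CPM with thapsigargin. Trib3, a target of CHOP, averaged 4.42 ± 0.805 CPM with IFN-gamma and 0.92 ± 0.196 CPM without (log2 fold change 2.23 ± 0.38, adjusted p = 2.01e-05) and 372 CPM with thapsigargin. Ddit3, which encodes CHOP, rose by 0.65 ± 0.15 with IFN-gamma and by 6.42 ± 0.16 with thapsigargin. Asns, asparagine synthetase, Sesn2 and Atf4 itself were not called with IFN-gamma (-0.31, -0.08 and 0.12), and Psat1, of serine synthesis, fell by 0.52.

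Among 20 aminoacyl-tRNA synthetases, which charge tRNAs with amino acids, 4 rose (20%) and 2 fell (10%) with IFN-gamma. Of all genes tested 13.1% rose and 12.1% fell with IFN-gamma. With thapsigargin 16 of the 20 synthetases rose and 1 fell. Wars, for tryptophan, stood at 784, 779.7, 897 and 988 CPM with IFN-gamma against 128, 114, 109.6 and 121 CPM in untreated libraries (log2 fold change 2.87 ± 0.12, adjusted p = 9.58e-21), and at 418 CPM with thapsigargin. Kars, for lysine, stood at 354, 329, 351 and 371 CPM with IFN-gamma against 219, 193, 193 and 179 CPM in untreated libraries (log2 fold change 0.84 ± 0.09, adjusted p = 1.98e-09), and differed by -0.01 on the log2 scale with thapsigargin. The others with a rise were Yars (0.43 ± 0.07) and Lars (0.29 ± 0.07), with calls lost in the lower 20 library numbers alone. Of 16 cytosolic heat shock genes edgeR called 1, DESeq2 also 1, and 4 had an unadjusted p under 0.05. The call was Hspb8, a small heat shock protein of chaperone-assisted autophagy, at 4.48, 3.87, 4.13 and 5.01 CPM with IFN-gamma against 0.651, 0.755, 0.442 and 0.214 CPM in untreated libraries (log2 fold change 2.99 ± 0.25, adjusted p = 3.98e-12). Of 20 NRF2 targets of oxidative stress 4 rose (20%) and 2 fell (10%), the same shares as for the synthetases. Txnrd1, thioredoxin reductase, led them at 597 ± 18.6 CPM with IFN-gamma and 379 ± 22.2 CPM without (log2 fold change 0.66 ± 0.08, adjusted p = 5.41e-08). Hmox1 was not called (-0.23). That count of 4 was 1 without IFN-gamma replicates 1 and 3.

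Genes of oligodendrocyte progenitors were lower as a group. Of 28 tested members 19 fell (67.9%, against 12.1% of all genes) and 1 rose, with a median log2 fold change of -0.60. Without IFN-gamma replicates 1 and 3, 16 fell, and in the lower 20 library numbers alone 13. Pdgfra, the receptor for the main mitogen of progenitors, stood at 1371, 1508, 1391 and 1494 CPM with IFN-gamma against 2638, 2717, 2601 and 2637 CPM in untreated libraries (log2 fold change -0.88 ± 0.17, adjusted p = 0.000146). Cspg4 (NG2), the surface proteoglycan of progenitors, stood at 325, 366, 369 and 381 CPM with IFN-gamma against 621, 644, 607 and 665 CPM in untreated libraries (log2 fold change -0.82 ± 0.18, adjusted p = 0.000733). Ednrb, the endothelin receptor that delays differentiation, stood at 67.1, 89.8, 84.4 and 100.4 CPM with IFN-gamma against 312, 351, 277 and 374 CPM in untreated libraries. Its groups were well separated, with log2 fold change -1.94 ± 0.17, adjusted p = 8.44e-12. Rlbp1, a retinal-binding protein expressed in these cells, stood at 41.7, 50.4, 44.3 and 48.5 CPM with IFN-gamma against 148, 139, 135 and 131 CPM in untreated libraries (log2 fold change -1.58 ± 0.17, adjusted p = 2.21e-09). Xylt1, which starts proteoglycan chains, fell by 1.11 on the log2 scale, Tnr (tenascin-R) by 1.03, Gpr37l1 by 0.61 and Bcan (brevican) by 0.70. Bcan lost its call without IFN-gamma replicates 1 and 3, and Tnr in the lower 20 library numbers alone. Ptprz1, a receptor phosphatase, was the rise (log2 fold change 0.32 ± 0.12, adjusted p = 0.0424), and its call was lost under 8 of 18 settings. Pcdh15, Lhfpl3 and Vcan, also known progenitor genes, were not called (-0.19, -0.04 and -0.03).

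Genes of the premyelinating stage, which follows on the progenitor, were lower in 8 of 20 tested members (40%) and higher in 1 (5%). The shares over all genes were 12.1% and 13.1%, and the list median was -0.81. Gpr17, a receptor that marks this stage, stood at 166, 192, 242 and 326 CPM with IFN-gamma against 738, 863, 680.4 and 1499 CPM in untreated libraries (log2 fold change -2.03 ± 0.36, adjusted p = 3.16e-05). The groups did not overlap, and untreated replicate 4 was the highest of the 8. Neu4, a sialidase, stood at 3.09, 3.03, 4.08 and 4.37 CPM with IFN-gamma against 12.4, 13.8, 8.47 and 21.6 CPM in untreated libraries (log2 fold change -1.95 ± 0.42, adjusted p = 0.000426). Bmp4, a growth factor that opposes myelination, was at 0.388 against 2.63 CPM (log2 fold change -2.75 ± 0.82, adjusted p = 0.0106), with 26 reads in the IFN-gamma libraries and 179 in the untreated ones. Kif19a, a kinesin, averaged 1.99 ± 0.926 CPM with IFN-gamma and 9.98 ± 4.71 CPM without (log2 fold change -2.33 ± 0.59, adjusted p = 0.00275). Rnf122, a ubiquitin ligase, was the rise, at 102 ± 1.84 CPM with IFN-gamma and 42.1 ± 6.15 CPM without (log2 fold change 1.27 ± 0.21, adjusted p = 8.87e-06). Enpp6 and Bcas1, later markers of the stage, were not called (11 against 24.1 CPM and 749 against 1068 CPM). The count of falls depends on the libraries: it was 2 without IFN-gamma replicates 1 and 3, 3 in the lower 20 and 5 in the upper 20 library numbers, 5 without IFN-gamma replicate 1, 4 without untreated replicate 4 and 14 in a fit of the 8 libraries alone. Kif19a and Bmp4 lost their calls without IFN-gamma replicates 1 and 3, and Bmp4 also in the lower 20 library numbers alone.

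Myelin genes varied widely between libraries at this time. Of 35 tested members 7 fell (20%) and 2 rose (5.71%), against 12.1% and 13.1% of all genes, with a median of -0.48. Mbp, myelin basic protein, stood at 21.6, 18.4, 49.1 and 54.8 CPM with IFN-gamma against 41.3, 40, 47.4 and 86.1 CPM in untreated libraries. The groups overlapped and it was not called (log2 fold change -0.58 ± 0.59, adjusted p = 0.526). Myrf, the transcription factor that starts the myelin programme, stood at 23.6, 33.6, 29.2 and 37.5 CPM with IFN-gamma against 50.3, 63.6, 60.4 and 98.2 CPM in untreated libraries (log2 fold change -1.14 ± 0.30, adjusted p = 0.00427), and this call was lost without IFN-gamma replicates 1 and 3 and in the lower 20 library numbers alone. Gal3st1, which makes the myelin lipid sulfatide, fell by 1.18 on the log2 scale. Pllp (plasmolipin) fell by 1.46 and Gjb1, a connexin, by 0.98. Gpr37, a receptor that restrains maturation, stood at 0.99, 1.01, 1.6 and 2.57 CPM with IFN-gamma against 10.7, 11.9, 11.2 and 14.7 CPM in untreated libraries (log2 fold change -2.99 ± 0.38, adjusted p = 9.14e-08), a call that the isoform table summed per gene did not give. Enpp2 (autotaxin) rose (995 ± 89 CPM with IFN-gamma and 465 ± 86.1 CPM without, log2 fold change 1.10 ± 0.18, adjusted p = 9.77e-06), as did Car2, carbonic anhydrase (4.56 against 1.76 CPM, log2 fold change 1.37 ± 0.30, adjusted p = 0.000642). The count of falls was 15 in a fit of the 8 libraries alone and 4 without IFN-gamma replicates 1 and 3.

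**Figure D3:**
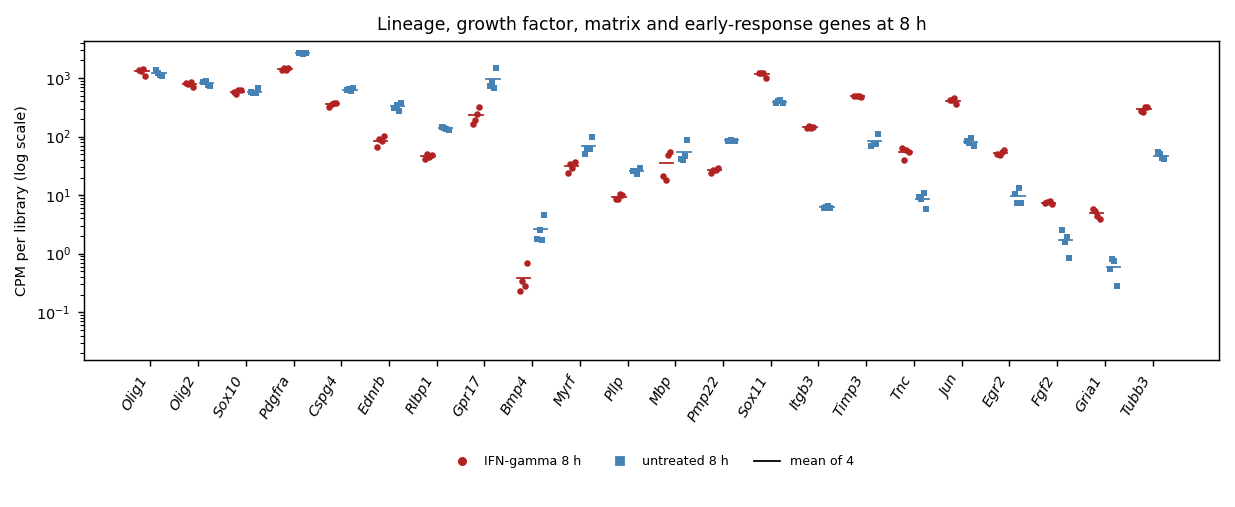
CPM of 22 genes of the lineage, its growth factors, matrix and early genes in each library (log axis), with the 4 IFN-gamma libraries as red circles on the left of each gene and the 4 untreated libraries as blue squares on the right. Olig1, Olig2 and Sox10 lie level in both groups, Pdgfra, Ednrb, Rlbp1, Gpr17 and Pmp22 lie lower with IFN-gamma, and Sox11, Itgb3, Timp3, Tnc, Jun and Egr2 lie higher.

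Lineage transcription factors moved both ways, 13 of 39 higher (33.3%) and 6 lower (15.4%), with a median of 0.01. Over all genes the shares were 13.1% and 12.1%. Sox11, a factor of immature neural cells, stood at 1201, 1241, 1231 and 990.3 CPM with IFN-gamma against 379.9, 402, 423 and 374 CPM in untreated libraries (log2 fold change 1.56 ± 0.13, adjusted p = 1.47e-12). The groups did not overlap, and replicate 4 was the lowest of the IFN-gamma libraries. Prrx1 averaged 50.8 ± 2.91 CPM with IFN-gamma and 22.5 ± 3.08 CPM without (log2 fold change 1.17 ± 0.35, adjusted p = 0.0102; lost without IFN-gamma replicates 1 and 3), and Zfp536 20 ± 2.48 CPM with IFN-gamma and 8.45 ± 0.697 CPM without (log2 fold change 1.25 ± 0.21, adjusted p = 1.61e-05). Id3, an inhibitor of differentiation factors, averaged 24.9 ± 1.43 CPM with IFN-gamma and 11.7 ± 2.62 CPM without (log2 fold change 1.09 ± 0.25, adjusted p = 0.000998), while Id2 and Id4 were not called (0.28 and -0.01). Hes1 and Hes5, targets of Notch, fell by 1.13 and 1.15, and for Hes5 the groups overlapped and the call was lost in the upper 20 library numbers alone. Sox8 fell by 0.83 and Nkx2-2 rose by 0.82 ± 0.24, both calls lost without IFN-gamma replicates 1 and 3, and for Nkx2-2 the groups overlapped. For the list as a whole, 8 rose and 2 fell without IFN-gamma replicates 1 and 3, and the upper 20 library numbers alone gave 6 rises and 7 falls. Both comparisons hold fewer libraries, and the cause of the lower counts was not tested.

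Growth factors and morphogen pathways also split, with 13 of 53 higher (24.5%) and 15 lower (28.3%), against 13.1% and 12.1% of all genes. Without IFN-gamma replicates 1 and 3, 11 were higher and 9 lower, and in the lower 20 library numbers alone 12 and 8. Fgf2, a mitogen of progenitors, stood at 7.28, 7.52, 7.88 and 7.06 CPM with IFN-gamma against 2.5, 1.6, 1.92 and 0.857 CPM in untreated libraries (log2 fold change 2.09 ± 0.24, adjusted p = 1.38e-08), and Fgf1 fell by 1.32. The calls of Fgf1, Bmp7 and Dll3 were lost in the lower 20 library numbers alone, and that of Met in the upper 20. Nrg1, a ligand of ERBB receptors, averaged 11.9 ± 1.93 CPM with IFN-gamma and 4.55 ± 0.741 CPM without (log2 fold change 1.40 ± 0.15, adjusted p = 1.6e-09), whereas the receptor gene Erbb3 averaged 52.4 ± 19.2 CPM with IFN-gamma and 115 ± 28.3 CPM without (log2 fold change -1.14 ± 0.29, adjusted p = 0.0026) and lost its call without IFN-gamma replicates 1 and 3. Bmp2 averaged 1.66 ± 0.274 CPM with IFN-gamma and 0.184 ± 0.117 CPM without (log2 fold change 3.21 ± 0.48, adjusted p = 2.21e-06), its receptor Bmpr1a rose by 0.75 ± 0.05 and the inhibitor Smad7 by 1.56 ± 0.28. Bmp7 fell by 0.68. In the Notch pathway the receptor Notch1 rose (533 ± 18.6 CPM with IFN-gamma and 354 ± 22.1 CPM without, log2 fold change 0.59 ± 0.07, adjusted p = 3.41e-08), and Notch2, Jag1 and Dll3 fell by 1.00, 1.28 and 1.20. Met, the receptor for hepatocyte growth factor, averaged 1.64 ± 0.142 CPM with IFN-gamma and 0.301 ± 0.111 CPM without (log2 fold change 2.43 ± 0.44, adjusted p = 5.05e-05). Sp5, a target of Wnt signalling, had 66 reads with IFN-gamma and 1 without, but Nkd1, Apcdd1 and Znrf3, other genes that respond to Wnt, were not called (-0.30, -0.02 and -0.19), and Axin2 rose by 0.64 ± 0.13. The receptor genes Ntrk2 and Lgr5 fell by 0.88 and 1.09.

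Ion channels, transporters and receptors of the lineage were lower in 21 of 58 tested members (36.2%) and higher in 9 (15.5%). Over all genes 12.1% were lower and 13.1% higher. Without IFN-gamma replicates 1 and 3, 11 were lower and 9 higher, and in the lower 20 library numbers alone 12 and 7. Gria1, a subunit of AMPA-type glutamate receptors, stood at 5.88, 5.39, 4.46 and 3.92 CPM with IFN-gamma against 0.551, 0.799, 0.737 and 0.285 CPM in untreated libraries (log2 fold change 3.0 ± 0.38, adjusted p = 7.05e-08). The other AMPA subunits went the other way or were not called: Gria2 fell by 0.37, and Gria4 differed by -0.10. Grik2, of the kainate type, averaged 62.8 ± 5.02 CPM with IFN-gamma and 23.7 ± 0.844 CPM without (log2 fold change 1.41 ± 0.14, adjusted p = 7.23e-10) and Grin3a, of the NMDA type, 3.8 ± 0.69 CPM with IFN-gamma and 11.9 ± 0.505 CPM without (log2 fold change -1.64 ± 0.16, adjusted p = 1.35e-10). Of potassium channels Kcnd3 fell by 0.84, Kcna2 by 0.71 and Kcnk1 by 1.57, while Kcnk10 rose by 0.76 ± 0.13. Slc1a3, the glutamate transporter GLAST, stood at 234, 240.0, 221 and 219.6 CPM with IFN-gamma against 122, 118, 115 and 93.2 CPM in untreated libraries (log2 fold change 1.03 ± 0.15, adjusted p = 1.88e-06). The AMPA receptor partner Cacng5 rose by 1.05 ± 0.16.

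In the extracellular matrix and axon guidance list 15 of 82 rose (18.3%) and 26 fell (31.7%), against 13.1% and 12.1% of all genes. Itgb3, integrin beta 3, stood at 141, 153, 142 and 148 CPM with IFN-gamma against 6.01, 6.31, 6.56 and 5.92 CPM in untreated libraries (log2 fold change 4.56 ± 0.16, adjusted p = 4.89e-23). Timp3, a tissue inhibitor of metalloproteinases, stood at 491, 503, 489 and 481 CPM with IFN-gamma against 70.4, 75.6, 74.9 and 110.5 CPM in untreated libraries (log2 fold change 2.57 ± 0.20, adjusted p = 8.91e-13), and Timp4, of the same family, at 1.46, 1.07, 2.15 and 2.44 CPM with IFN-gamma against 13.3, 13.1, 14.9 and 16.1 CPM in untreated libraries (log2 fold change -3.02 ± 0.19, adjusted p = 1.39e-15). These are opposite directions within 1 family, and Timp2 was not called (-0.28). Tnc (tenascin-C) stood at 62.8, 39.5, 58.2 and 53.9 CPM with IFN-gamma against 9.27, 8.44, 10.7 and 5.85 CPM in untreated libraries (log2 fold change 2.64 ± 0.45, adjusted p = 1.87e-05), opposite to its relative Tnr. Fn1 (fibronectin) averaged 6.56 ± 0.883 CPM with IFN-gamma and 1.71 ± 0.213 CPM without (log2 fold change 1.93 ± 0.22, adjusted p = 1.02e-08). Mmp15, a membrane-bound metalloproteinase, stood at 269.8, 246, 272 and 262 CPM with IFN-gamma against 642, 554, 624 and 474 CPM in untreated libraries (log2 fold change -1.13 ± 0.15, adjusted p = 1.57e-07). Col9a1 fell by 1.27, Lamc1 by 0.88 and the integrin Itga4 by 1.52. Of guidance cues Sema3d stood at 20.7, 20.9, 24.1 and 27 CPM with IFN-gamma against 69.4, 77.2, 81.9 and 98.6 CPM in untreated libraries (log2 fold change -1.82 ± 0.20, adjusted p = 2.69e-09), and Sema3e, of the same class, averaged 18.7 ± 1.45 CPM with IFN-gamma and 4.87 ± 1.67 CPM without (log2 fold change 1.94 ± 0.26, adjusted p = 3.06e-07). Slit2 and its receptor Robo2 rose by 1.34 ± 0.15 and 1.74 ± 0.17, Efnb2 by 1.18 ± 0.16 and Epha5 by 0.89 ± 0.21. Pcdh8, a protocadherin, averaged 1.23 ± 0.216 CPM with IFN-gamma and 6.99 ± 1.32 CPM without (log2 fold change -2.52 ± 0.25, adjusted p = 3.1e-10).

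Immediate early genes did not rise together. Of 25 tested members 5 rose (20%) and 4 fell (16%), against 13.1% and 12.1% of all genes, but 3 of the rises were large. The counts were 3 and 2 without IFN-gamma replicates 1 and 3, and 3 and 4 without untreated replicate 4. Jun stood at 422, 416, 458 and 355 CPM with IFN-gamma against 85, 78.8, 93.7 and 70 CPM in untreated libraries (log2 fold change 2.33 ± 0.17, adjusted p = 1.1e-13), Egr2 at 51.3, 48.5, 54.1 and 59.9 CPM with IFN-gamma against 10.5, 7.37, 13.3 and 7.42 CPM in untreated libraries (log2 fold change 2.48 ± 0.25, adjusted p = 7.05e-10) and Fosl2 averaged 22.7 ± 1.3 CPM with IFN-gamma and 6.91 ± 3.33 CPM without (log2 fold change 1.72 ± 0.25, adjusted p = 8.49e-07). Fos, Egr1 and Myc were not called (119.6 against 124 CPM, 20.6 against 25.1 CPM and 114 against 112 CPM). Nr4a1 fell by 0.79 and Klf10 by 0.89. With thapsigargin Egr2 averaged 0.814 CPM and Jun 95.2 CPM, against 9.66 and 81.9 CPM in the same untreated libraries. Circadian and glucocorticoid-responsive genes were lower in 11 of 23 (47.8%) and higher in 3 (13%), with a median of -0.40. Per2 averaged 5.63 ± 0.432 CPM with IFN-gamma and 12.2 ± 0.867 CPM without (log2 fold change -1.12 ± 0.12, adjusted p = 2.26e-09), Nr1d1 (Rev-erb alpha) 1.52 ± 0.168 CPM with IFN-gamma and 4.15 ± 0.829 CPM without (log2 fold change -1.45 ± 0.18, adjusted p = 3.81e-08), and Tef, an output factor of the clock, fell by 0.50. Sgk1, a kinase induced by glucocorticoids, averaged 40.5 ± 4.15 CPM with IFN-gamma and 88.5 ± 23 CPM without (log2 fold change -1.13 ± 0.29, adjusted p = 0.0027; lost in the lower 20 library numbers alone), while the other glucocorticoid targets Fkbp5 and Tsc22d3 were not called (-0.18 and 0.24) and Klf15 rose by 1.15 ± 0.11. Clock, Arntl and Cry1 of the core clock were not called (-0.13, 0.31 and -0.16). In the lower 20 library numbers alone the circadian list gave 2 rises and 5 falls.

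Few cell cycle genes were called at 8 h. Of 30 genes of mitosis edgeR called none, DESeq2 also none, and none had an unadjusted p under 0.05. Mki67, the proliferation antigen, stood at 697, 734, 670.1 and 584 CPM with IFN-gamma against 655, 644, 815 and 776 CPM in untreated libraries, with overlapping groups (log2 fold change -0.11 ± 0.22, adjusted p = 0.785). Of 34 DNA replication genes edgeR called 1 lower, DESeq2 also 1, and 4 had an unadjusted p under 0.05. Their median was -0.27, and in a fit of the 8 libraries alone 15 were lower. With thapsigargin 34 of the 34 replication genes and 28 of the 30 mitosis genes fell. Of 28 G1 regulators 6 rose (21.4%) and 3 fell (10.7%), against 13.1% and 12.1% of all genes. Without IFN-gamma replicates 1 and 3 these counts were 5 and 0. Cdkn1b (p27), which holds cells in G1, stood at 207, 214, 219.7 and 194 CPM with IFN-gamma against 137, 137, 129 and 122 CPM in untreated libraries (log2 fold change 0.67 ± 0.08, adjusted p = 2.98e-08). Cdk6 averaged 3.31 ± 1.43 CPM with IFN-gamma and 0.485 ± 0.322 CPM without (log2 fold change 2.64 ± 0.60, adjusted p = 0.000894) and Gadd45g, a stress-induced growth arrest gene, 100.5 ± 13.2 CPM with IFN-gamma and 31.3 ± 5.09 CPM without (log2 fold change 1.68 ± 0.22, adjusted p = 1.5e-07). Ccnd1 and Cdkn1a were not called (0.28 and -0.01), and Ccne1 and Ccne2 fell by 0.42 and 0.62 with calls lost under 13 and 6 of the 18 settings.

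The ribosomal, respiratory and metabolic lists stayed near the background or below it. Of 32 ribosomal protein genes edgeR called none, DESeq2 none, and 1 had an unadjusted p under 0.05, but in the lower 20 library numbers alone 11 were lower. Of 33 nuclear genes of oxidative phosphorylation edgeR called 1 higher, DESeq2 also 1, and 4 had an unadjusted p under 0.05. That call was lost under 7 of 18 settings, and in the lower 20 library numbers alone 10 were lower. Cholesterol synthesis and its regulators gave 4 rises and 3 falls of 35. Hmgcs1, an early enzyme of the pathway, stood at 2608, 2423, 2075 and 2116 CPM with IFN-gamma against 2658, 2578, 2316 and 1967 CPM in untreated libraries, with overlapping groups (log2 fold change -0.05 ± 0.17, adjusted p = 0.888). Nr1h2 (LXR beta), a sensor of oxysterols, rose (53 ± 3.13 CPM with IFN-gamma and 29.6 ± 2.13 CPM without, log2 fold change 0.84 ± 0.09, adjusted p = 3.82e-09). Of 23 genes of glycolysis 3 rose and 4 fell (2 and 2 without IFN-gamma replicates 1 and 3), among them a rise of 0.74 ± 0.10 in Pfkp while Eno1 fell by 0.50. Of 31 autophagy and lysosome genes 5 rose and 1 fell (3 and 4 in the lower 20 library numbers alone). Lamp2, a lysosomal membrane protein of chaperone-mediated autophagy, stood at 328, 329.9, 309 and 312 CPM with IFN-gamma against 136, 129, 128 and 134 CPM in untreated libraries (log2 fold change 1.28 ± 0.07, adjusted p = 8.3e-18). Lamp1 was not called (-0.03), and Npc1, which exports cholesterol from lysosomes, fell by 0.44.

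Markers of other cell types were read next, with their part in the results not tested beyond the values given. The summed endothelial and mural markers lay at 21.9 to 23.7 CPM with IFN-gamma and 8.07 to 11.7 CPM without. Of 11 tested members 3 rose and 1 fell, against 13.1% and 12.1% of all genes. Called higher were Acta2 (smooth muscle actin, 9.19 ± 0.722 CPM with IFN-gamma and 0.259 ± 0.133 CPM without), Kcnj8 (4.21 ± 0.445 CPM with IFN-gamma and 0.379 ± 0.191 CPM without) and Ly6c1 (2.59 CPM and 1 untreated read). Kdr, an endothelial receptor of vascular growth factor, was the fall, at 4.05 ± 0.512 CPM with IFN-gamma and 7.41 ± 0.96 CPM without (log2 fold change -0.88 ± 0.20, adjusted p = 0.000698). The defining endothelial genes Cldn5 and Cdh5 had no read with IFN-gamma and 2 each without. Astrocyte markers summed to 588.8 to 639.0 CPM with IFN-gamma and 455.1 to 552.1 CPM without. Slc1a3, given above, was the 1 rise among 12 tested, S100b fell by 1.23 and Fgfr3 by 0.79 with calls lost without IFN-gamma replicates 1 and 3, and Gfap and Aqp4 were not called (8.18 against 8.46 CPM and 1.94 against 3.07 CPM). Neuron markers summed to 1209 to 1683 CPM with IFN-gamma and 1337 to 1510 CPM without, and of 13 tested 4 rose and 1 fell. Tubb3, a neuronal tubulin, stood at 273, 263, 318 and 322 CPM with IFN-gamma against 53.7, 51.1, 43.3 and 41.8 CPM in untreated libraries (log2 fold change 2.63 ± 0.14, adjusted p = 4.71e-18), and Syt1, Nefm and Elavl4 rose by 1.12 ± 0.19, 0.85 ± 0.17 and 1.03 ± 0.19. Syp (synaptophysin), the fall, was at 14.7 against 18.4 CPM (log2 fold change -0.32 ± 0.10, adjusted p = 0.013), and this call was lost without IFN-gamma replicates 1 and 3. Snap25, Nefl and Rbfox3 were not called (5.7 against 6.12 CPM, 5.82 against 5.34 CPM and 0.63 against 0.395 CPM). Fibroblast markers summed to 41.4 to 46.2 CPM with IFN-gamma and 31.6 to 48.8 CPM without, and Lum (lumican, 4.82 ± 0.766 CPM with IFN-gamma and 0.162 ± 0.0401 CPM without) was the 1 call of 3 tested, while Col1a1 and Dcn had at most 12 reads in either group. Schwann cell markers summed to 129.7 to 152.3 CPM with IFN-gamma and 159.5 to 197.4 CPM without. Pmp22, a peripheral myelin gene also expressed in other cells, stood at 23.6, 26.4, 26.6 and 29.4 CPM with IFN-gamma against 85.1, 89.2, 85.2 and 84.1 CPM in untreated libraries (log2 fold change -1.70 ± 0.18, adjusted p = 1.71e-09).

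The largest falls, over genes that reached a mean log2 CPM of 1 without overlap of groups, came mostly from genes of modest level. After Timp4, Gpr37, Pcdh8 and Kif19a they include Pnlip, pancreatic lipase, at 5.24, 4.15, 9.21 and 5.84 CPM with IFN-gamma against 49.8, 38.4, 52.5 and 54.8 CPM in untreated libraries (log2 fold change -2.99 ± 0.37, adjusted p = 5.31e-08). Rasgef1c, an exchange factor for small GTPases, averaged 1.27 ± 0.357 CPM with IFN-gamma and 6.36 ± 1.19 CPM without (log2 fold change -2.33 ± 0.26, adjusted p = 7.71e-09), and Kif26a, a kinesin-related gene, 1.56 ± 0.483 CPM with IFN-gamma and 7.43 ± 0.656 CPM without (log2 fold change -2.24 ± 0.37, adjusted p = 1.16e-05). Tmem132b averaged 1.48 ± 0.301 CPM with IFN-gamma and 7.05 ± 3.11 CPM without, Car8, a carbonic anhydrase relative, 11.9 ± 1.72 CPM with IFN-gamma and 52.1 ± 11.3 CPM without, Shisal1 4.64 ± 1.05 CPM with IFN-gamma and 19.5 ± 6.17 CPM without and S100a3 1.47 ± 0.373 CPM with IFN-gamma and 6.08 ± 1.73 CPM without. Cdk18 fell by 2.13 on the log2 scale, and lost its call without IFN-gamma replicates 1 and 3, without replicate 1 or 2 alone, without untreated replicate 4 and in the lower 20 library numbers alone.

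The 8 h response was set against that at 1 h, a comparison that shares no library with it. At 1 h 163 genes were higher (1.08%) and 32 lower (0.211%). The effect differed between 8 h and 1 h for 1874 genes (12.4%), 1119 above 0 (7.39%) and 755 below 0 (4.99%). Of the genes higher at 8 h, 1053 had a larger rise at 8 h and 4 a smaller one. Of those lower at 8 h, 697 had a deeper fall at 8 h. These genes were picked by their 8 h effect, which is part of the difference, so the split was largely set in advance. Irf1 had already risen at 1 h, with a log2 fold change of 4.63 ± 0.13 there and 5.38 ± 0.13 at 8 h (difference 0.74 ± 0.16, adjusted p = 0.00107). Socs1 was at 3.24 ± 0.41 at 1 h and 7.42 ± 0.36 at 8 h (difference 4.18 ± 0.71, adjusted p = 3.9e-05). Cish was among the 4 genes with the smaller rise at 8 h, 1.83 ± 0.14 at 1 h against 1.13 ± 0.14 at 8 h (difference -0.71 ± 0.20, adjusted p = 0.0118). Of the GTPases, 9 of 11 IRGs and 4 of 10 GBPs were already higher at 1 h. B2m was not called at 1 h (0.32 ± 0.14), nor was H2-K1 (-0.01 ± 0.22). Of progenitor genes, 10 had a deeper fall at 8 h by the test of the difference, among them Pdgfra (difference -0.94 ± 0.24, adjusted p = 0.00668) and Ednrb (-1.96 ± 0.23, adjusted p = 4.17e-08).

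Against 24 h, again with no shared library, 203 genes differed (1.34%), 107 above 0 (0.707%) and 96 below 0 (0.634%). At 24 h 1908 genes were higher (12.6%) and 1585 lower (10.5%). Class I chains were the list with the most differences: 9 of 14 had a smaller rise at 8 h. H2-K1 rose by 4.27 ± 0.22 at 8 h and 7.84 ± 0.26 at 24 h (difference -3.57 ± 0.30, adjusted p = 5.81e-10), H2-D1 by 3.41 ± 0.14 and 5.85 ± 0.16, and H2-Q7 by 3.62 ± 0.21 and 7.20 ± 0.22. B2m was at 4.99 ± 0.16 and 6.24 ± 0.17. Class II chains did likewise, H2-Ab1 with 3.65 ± 0.17 and 5.99 ± 0.16 (difference -2.33 ± 0.26, adjusted p = 6.08e-07) and H2-Eb1 with 5.51 ± 0.34 and 8.68 ± 0.30 (difference -3.17 ± 0.77, adjusted p = 0.0268). Nlrc5, the regulator gene of the class I chains, was not called as different, at 8.26 ± 0.32 and 7.41 ± 0.30 (adjusted p of the difference 0.309). Nor were Tap1 and Psmb8, at 4.98 ± 0.17 and 5.50 ± 0.17 and at 8.91 ± 0.25 and 10.03 ± 0.26. The opposite pattern, larger at 8 h, was shown by Pcsk1, a prohormone convertase, with 5.79 ± 0.41 at 8 h and 0.71 ± 0.43 at 24 h (difference 5.07 ± 0.65, adjusted p = 7.39e-06). Pcsk1 stood at 9.61, 8.98, 10.8 and 9.51 CPM with IFN-gamma against 0.2, 0.222, 0 and 0.214 CPM in untreated libraries. The rise of Wars was 2.87 ± 0.12 at 8 h and 1.60 ± 0.11 at 24 h (difference 1.27 ± 0.16, adjusted p = 6.46e-06), that of Hspb8 2.99 ± 0.25 and 1.29 ± 0.24 (adjusted p of the difference 0.00884), and that of Id3 1.09 ± 0.25, with -0.62 ± 0.24 at 24 h (0.00672 by the same test). Upp1, uridine phosphorylase, averaged 18.3 ± 1.76 CPM with IFN-gamma and 1.01 ± 0.228 CPM without, with rises of 4.17 ± 0.38 and 2.05 ± 0.38. Of falls, Timp4 was at -3.02 ± 0.19 and -1.65 ± 0.16 (difference -1.37 ± 0.25, adjusted p = 0.00217) and Mmp15 at -1.13 ± 0.15 and -0.23 ± 0.15 (difference -0.89 ± 0.21, adjusted p = 0.0183). By the test of the difference no premyelinating gene and 1 progenitor gene differed between the times, and Gpr17 did not pass it (difference -0.82 ± 0.49, adjusted p = 0.462).

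**Figure D4:**
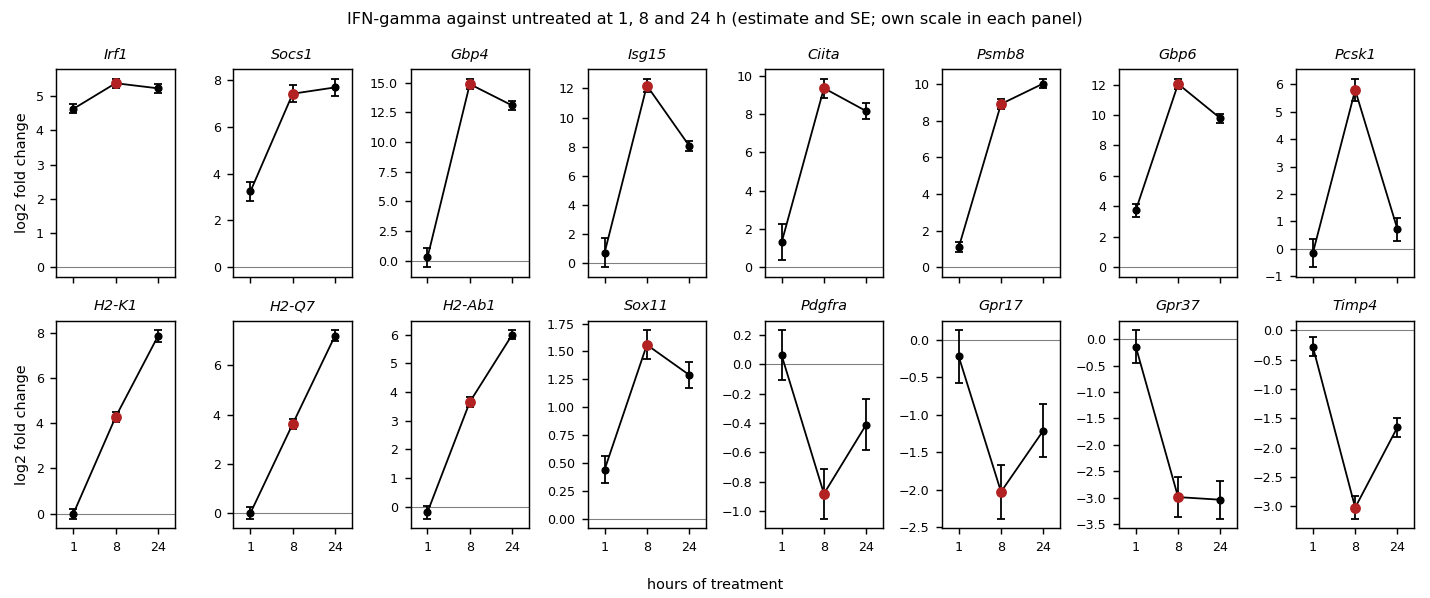
Log2 fold change of IFN-gamma over untreated cells at 1, 8 and 24 h (evenly spaced positions) for 16 genes, with bars of 1 SE. Irf1 lies near its 8 h value at 1 h, class I and II chains such as H2-K1 and H2-Ab1 go on rising to 24 h, and Pcsk1 is high at 8 h only among the 3 times.

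The isoform table gives estimated counts per transcript, from which the share of each transcript in its gene was taken. Of 806 listed genes with at least 2 transcripts and at least 10 estimated counts in each of the 8 libraries, 36 had a transcript whose mean share differed by at least 20 percentage points with no overlap between groups. These are estimates, with no test. Wars showed the clearest exchange. The transcript Wars-205 held 65, 70.7, 70.7 and 74.3% with IFN-gamma against 0, 0, 2.51 and 1.05% in untreated libraries, while Wars-201 held 22.8 ± 2.74% with IFN-gamma and 94.9 ± 3.48% in untreated libraries. Adar-203 held 27.3, 33.4, 25 and 37.1% of Adar with IFN-gamma and was estimated at 0 in 3 untreated libraries and close to 0 in the other, and Adar-202 held 48.7 ± 6.75% with IFN-gamma and 85.8 ± 4.38% in untreated libraries. Parp11-202 held 59.3 ± 1.59% with IFN-gamma and 9.71 ± 11.8% in untreated libraries, and Parp11-201 26.8 ± 2.78% with IFN-gamma and 71.5 ± 13.2% in untreated libraries. Il18bp-201 held 42.4 ± 3.13% with IFN-gamma and 3.75 ± 4.42% in untreated libraries, and Il18bp-202 26.6 ± 1.99% with IFN-gamma and 71.7 ± 3.16% in untreated libraries. In several genes a transcript annotated as retained intron had the larger share in untreated cells. Icam1-202, of that kind, held 17.5 ± 2.64% with IFN-gamma and 92.7 ± 3.25% in untreated libraries, and Casp4-202, also of that kind, 12.4 ± 3.77% with IFN-gamma and 63.6 ± 11.1% in untreated libraries. The coding transcript Casp4-201 held 78.4 ± 4.47% with IFN-gamma and 29.6 ± 16.6% in untreated libraries. Untreated shares of such genes rest on few estimated counts. Tap2, Uba7 and C4a went the other way. The retained-intron transcript Tap2-202 held 74.4 ± 1.74% with IFN-gamma and 44.7 ± 12.1% in untreated libraries. Uba7-210, also of that kind, held 30.7 ± 3.29% with IFN-gamma and 0% in untreated libraries. C4a-202, again of that kind, held 21.2 ± 6.02% with IFN-gamma and 0.882 ± 1.76% in untreated libraries. Irf9-202 held 65.7 ± 6.39% with IFN-gamma and 38.4 ± 3.68% in untreated libraries, and Gpr37-202, of a gene that fell, 87.6 ± 4.71% with IFN-gamma and 62.4 ± 12.4% in untreated libraries.

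**Figure D5:**
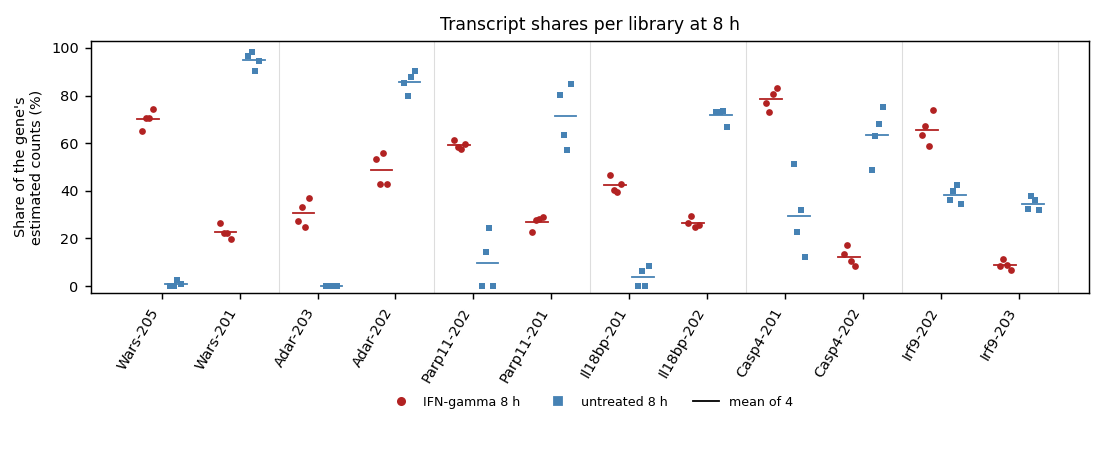
Share (percent) of paired transcripts in their gene's estimated counts in each library, for Wars, Adar, Parp11, Il18bp, Casp4 and Irf9, with IFN-gamma libraries as red circles on the left and untreated libraries as blue squares on the right. In Wars, Parp11 and Il18bp the pair exchanges rank between the groups, in Adar it lies closer together with IFN-gamma and in Irf9 farther apart. In Casp4 the means exchange rank, but in untreated replicate 1 Casp4-201 held 51.35% and Casp4-202 48.65%.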

How the data were processed

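Bulk RNA-seq gave 40 libraries of developing oligodendrocytes, of which 8 (IFN-gamma and untreated cells at 8 h) are compared here. In the deposited gene table the values are unnormalised counts of reads for 39056 gene identifiers, and in the deposited isoform table they are estimated counts for 112588 transcripts. Per the submitters' processing notes, STAR, featureCounts, kallisto and edgeR were used, with neither version nor role stated. Build, annotation and strand setting were not given in the sources used here, so reads of overlapping, antisense or near-identical genes may be shared. Gene names came from GENCODE M21 (38872 identifiers matched), and promoter sequences from RefSeq (GRCm38.p6).

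Genes of few reads were removed with filterByExpr by group. A gene with almost no untreated reads passes this filter only through groups where it is high. Shares of tested list members and list medians are therefore partly set in advance where a list holds such genes. TMM factors scaled the library sizes, and the counts were fitted with 1 mean per group over all 40 libraries in edgeR 4.0.16 (R 4.3.3; glmQLFit and glmQLFTest, 30 residual degrees of freedom, prior count 0.125), so that the spread of a gene is pooled over 10 groups. Calls were made over 15135 genes where the p, adjusted after Benjamini and Hochberg, was under 0.05. "Rose" and "fell" mean called higher or lower than untreated cells of the same time. Standard errors are the log2 fold change divided by the root of F. Differences between times were tested as interactions. Levels are given as CPM, with TMM-scaled library sizes, not corrected for gene length. A fold against a group with no read is a lower bound against 3 reads over the group, and for genes of 1 to 3 untreated reads only levels are given. Isoform shares are each transcript's part of its gene's estimated counts, and for a gene-level alternative the estimated counts were summed per gene and rounded. The model was tested on simulated counts. Each library held between 13165483 and 22651092 reads on genes, which limits genes of few reads.

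Named genes are, among calls whose groups did not overlap and whose mean log2 CPM reached 1, the 12 largest in each direction, the 12 of highest level among called genes at least 4-fold higher, up to 5 called members of each of 53 lists, a fixed set, and 6 per sign in each interaction; other list members are named where a list is described, and not every gene taken is printed. Some genes are counted in the lists but not reported by name here. Members, lists and the genes named were chosen with earlier results of these data known. Lists are described by counts and medians with no set test. The 18 alternatives were RLE size factors, no filter, DESeq2 1.42.0, a fit of the 8 libraries, the range of library numbers (lower or upper 20) as a block, each range alone, the Y-linked level as a covariate, the comparison without the IFN-gamma libraries of low Y-linked level, the isoform table and each library left out in turn. The labels do not call the ranges of library numbers batches. Figures were drawn with matplotlib 3.10.9.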

Additional observations from a re-analysis of the deposited data

Results flagged for a closer look

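Of 492 groups of 4 libraries (246 named genes in each treatment), those with at least 40 reads were tested, and in 27 of them 1 library lay apart from the other 3 by Dixon's test at the 95% level. Chance gives about 1 in 20 such groups. Among IFN-gamma libraries at 8 h the highest value stood apart for Gbp11 (91.28 CPM), Parp14 (588.5 CPM), Tlr3 (29.29 CPM), Tmem173 (9.141 CPM), Cxcl9 (1.863 CPM), Serpina3g (2.414 CPM), Nfkbiz (27.23 CPM), Cyp7b1 (13.42 CPM) and Eno1 (386.7 CPM). The lowest stood apart for Stat2 (213.1 CPM), Jak1 (148.4 CPM), Casp1 (10.89 CPM), Casp4 (26.33 CPM), Sox11 (990.3 CPM), Gadd45g (80.92 CPM) and Lum (3.668 CPM). Among untreated libraries the highest value stood apart for the oligodendrocyte genes Sox10 (664.4 CPM), Mbp (86.09 CPM) and Zfp536 (9.494 CPM). It did so too for Tmem132b (11.71 CPM), Shisal1 (28.77 CPM), Irf1 (26.45 CPM), Tnip2 (19.27 CPM), P4hb (367.9 CPM) and Timp3 (110.5 CPM). The lowest untreated value stood apart for Edem1 (48.36 CPM) and Pdia3 (242.2 CPM), which belong to protein handling in the endoplasmic reticulum.

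Effects of IFN-gamma differed between times by the interaction test in edgeR. Between 8 h and 1 h the log2 difference of effects was 14.62 for Gbp4, 14.57 for Gbp10, 12.5 for Ifi47, 11.92 for Gbp11, 11.57 for Gbp8 and 11.51 for Isg15, and with few or no reads in untreated cells these sizes depend on the prior count. The largest differences in the other direction were -2.96 for Pnlip, -2.84 for Gpr37, -2.74 for Timp4, -2.62 for Neu4, -2.44 for Fam89a and -2.39 for S100a3. Between 8 h and 24 h the effect was greater at 8 h by 5.07 for Pcsk1, 2.26 for Gbp6, 2.16 for Rnf128, 2.12 for Upp1, 2.04 for Cemip and 1.87 for Epha3 on the log2 scale. Class I and class II genes of antigen presentation made up the other end, with -4.08 for H2-Q6, -3.58 for H2-Q7, -3.57 for H2-K1, -3.17 for H2-Eb1, -2.44 for H2-D1 and -2.33 for H2-Ab1.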

How the results depend on the processing

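Of 250 named genes, 241 were called at 8 h, 55 of these lost the call under at least 1 of the 18 alternatives and none turned its sign under any of them. Over all lists 167 of 461 called members lost a call and none turned its sign. Without IFN-gamma replicates 1 and 3 no fall was called in the receptor and JAK, serpin, G1, checkpoint, cell death, chaperone, neuron and astrocyte lists. The count of genes called at 8 h was 3811, of which 1977 were higher and 1834 lower in IFN-gamma cells. It was 2456 in the upper 20 library numbers alone and 2539 without IFN-gamma replicates 1 and 3, the 8 h libraries of low Y-linked level. With the Y-linked level as a covariate and all libraries kept it was 3640, of which 1897 were higher and 1743 lower. Genes lower at 8 h numbered 1191 with no filter on low counts, 1024 in the upper 20 library numbers alone, 951 without IFN-gamma replicates 1 and 3, and 1200 in the isoform table summed per gene. With 1 library left out, genes called at 8 h ranged from 3186 to 3576, with 54.4% to 60.3% of them higher, against 51.9% with all libraries. The number of genes whose effect differed between 8 h and 1 h was 1874. It was 839 in the lower 20 library numbers alone and 1031 in the upper 20. The number of genes whose effect differed between 8 h and 24 h was 203. It was 105 with no filter, 372 in DESeq2, 13 and 37 in the lower and upper 20 library numbers alone, 75 without IFN-gamma replicates 1 and 3 and 83 in the isoform table. It ranged from 131 (without IFN-gamma replicate 1) to 202 with 1 library left out, and was 135 without untreated replicate 3. The subsets of libraries hold fewer samples, the unfiltered table holds more tests, and for the other shifts the cause was not tested. Interactions were not fitted on the 8 libraries of 8 h, which hold no other time. No paired analysis was possible because the replicate numbers follow the order of deposition and the labels give no shared number; with the range of library numbers as a block in place of pairs, 4047 genes were called at 8 h. Depth limits genes with few reads in untreated cells, whose folds depend on the prior count.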
